A study of Homo sapiens with 2 samples.

Results

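Cytochrome P450 (CYP) genes were examined in the RNA sequencing data of MAEL knockout liver cancer cells. They were taken as the protein-coding genes whose symbol is CYP followed by a digit, except CYP51A1, an enzyme of cholesterol synthesis. This rule gave 55 genes among the 58735 genes of the deposited tables, of which 19951 are annotated as protein-coding. The 55 genes were divided by main substrate into 21 drug and xenobiotic, 6 bile acid and oxysterol, 3 vitamin D, 6 steroid hormone, 4 retinoid and 14 fatty acid and eicosanoid genes, with CYP20A1 as an orphan without a settled substrate.

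The cells were PLC8024, a hepatocellular carcinoma (HCC) line that the study also names PLC/PRF/5 and whose labels give Alexander cells of the liver with epithelial shape. The MAEL WT cells carried the wild-type gene and were untreated. The MAEL KO cells had been given a plasmid with Cas9 and an sgRNA against MAEL, a cancer/testis gene, then sorted for mCherry and seeded to grow single clones, and the labels state that loss of the gene was checked by Western blot and by T7E1, an assay that cuts mismatched DNA. Each genotype was sequenced as 1 library, so a difference between genotypes cannot be told apart from a difference between clones, cultures or library preparations.

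P450 enzymes are heme proteins that insert an oxygen atom into a substrate, with electrons passed on by the reductase POR in the endoplasmic reticulum or by ferredoxin in mitochondria. The liver holds most of the enzymes that clear drugs, and it also uses P450 enzymes to make bile acids, to activate or inactivate vitamin D, and to break down retinoic acid. Many of these genes are switched by receptors that sense the chemicals the enzymes act on, such as AHR for aromatic compounds, VDR for vitamin D, NR1H4 for bile acids and the RAR receptors for retinoic acid.

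The MAEL WT library held 19904136 read counts and the MAEL KO library 20833332. Counts were normalized by TMM, which corrects for the make-up of the libraries, and log2 fold changes were taken as the MAEL KO over the MAEL WT level after 1 was added to both normalized counts. Fold changes were computed for 17887 genes with 10 or more counts in either library, called tested genes here although no significance test was possible. Folds without a logarithm are ratios of the normalized counts with nothing added. The 95% intervals, given by their limits, are exact Clopper-Pearson intervals on the split of a gene's reads between the libraries, with nothing added, and they cover counting error only. Levels of different genes are compared in FPKM, which divides counts by gene length. The median log2 fold change over the tested genes was -0.04 with TMM and -0.31 when total counts were used instead, so the scaling alone moves each value by about that difference. MAEL itself had 1 count in MAEL WT and 0 in MAEL KO, both within the floor of 3 counts used here, and the genotype labels could not be checked by its transcript.

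Of the 55 P450 genes, 28 (50.9%) had 10 or more counts in either library, whereas 68.7% of protein-coding genes did. A further 22 P450 genes (40.0%) had at most 3 counts in both libraries, against 25.7% of protein-coding genes, and 11 of those 22 were at 0 in both. Among the 28 tested P450 genes, CYP26A1 alone lay above a log2 fold change of 2 (3.57%), where 2.16% of all tested genes did. CYP1A1, CYP24A1, CYP39A1, CYP26B1 and CYP19A1 lay below -2 (17.9%), where 5.64% of all tested genes did. CYP19A1 and CYP26B1 had reached 10 counts in the MAEL WT library only, and so could enter only as lower in MAEL KO. In either direction 6 of the 28 genes were past 2, against 7.8% of all tested genes. At a log2 fold change of 1, 2 genes lay above (10.2% of all tested genes did) and 6 below -1 (16.5% did), and 26.7% of all tested genes were past 1 in either direction.

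Of the 28 genes 13 lay above 0 and 15 below, and 48% of all tested genes lay above 0. The median of the 28 genes was -0.11, with an interval from the ranks of -0.82 to 0.19, and that of all tested genes lies inside it. Their counting intervals lay wholly above 0 for 4 genes (14.3%, against 34.8% of all tested genes) and wholly below 0 for 12 genes (42.9%, against 34.7%). The interval included 0 for the remaining 12. With total counts the median was -0.39, and 2 and 14 intervals lay wholly above and below 0. Summed over the 55 genes, the counts went from 15315 in MAEL WT to 5709 in MAEL KO, a log2 fold change of -1.21. CYP1A1 and CYP24A1 supplied most of this difference, since the other 53 genes summed to 5110 and 3898 counts, a log2 fold change of -0.18.

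**Figure D1:**
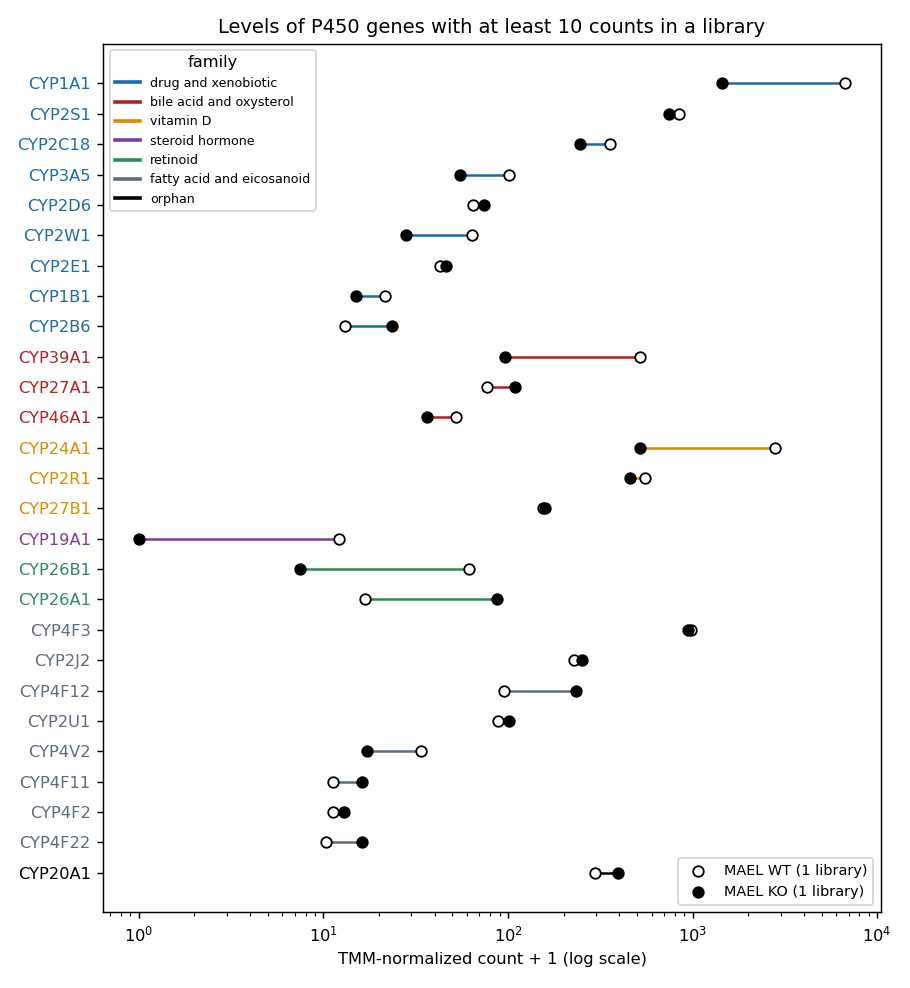
Normalized counts of P450 genes with 10 or more counts in either library, on a logarithmic axis with 1 added, with MAEL WT as open and MAEL KO as filled points (1 library each). Line colours mark the substrate families, and the long lines of CYP1A1, CYP24A1, CYP39A1, CYP26B1 and CYP19A1 run down from MAEL WT to MAEL KO while that of CYP26A1 runs up, from 15.8 to 86.3 normalized counts.

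The drug and xenobiotic family was led by CYP1A1, which oxidises polycyclic aromatic hydrocarbons and is the classical target of AHR. CYP1A1 (ENSG00000140465; GRCh38 chromosome 15, 74719542 to 74725610, minus strand) had 7208 counts in MAEL WT and 1332 in MAEL KO. The MAEL KO level was 4.68-fold lower, a log2 fold change of -2.22 (95% limits -2.31 and -2.14). In FPKM its level was 95.9 in MAEL WT, above 98.3% of tested genes, and 20.5 in MAEL KO, above 85.4% of them. It thus remained the P450 gene with the highest FPKM in both libraries.

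The promoter of CYP1A1 is shown because this gene gave the largest share of P450 reads. It was taken from RefSeq on GRCh38.p14 at chr15:74725479-74725778, minus strand, from 250 bases before the start to 50 after it. Capitals mark the letters GCGTG, the core of the element that AHR binds, the TATA box TATAAA, and CCAAT or its reverse complement ATTGG.
CYP1A1: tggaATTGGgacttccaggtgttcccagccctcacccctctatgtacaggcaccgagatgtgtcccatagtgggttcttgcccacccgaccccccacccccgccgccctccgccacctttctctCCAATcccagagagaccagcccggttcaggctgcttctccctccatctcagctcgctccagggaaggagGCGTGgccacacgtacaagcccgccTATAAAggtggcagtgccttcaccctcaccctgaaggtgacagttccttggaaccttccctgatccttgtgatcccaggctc
This window held 1 GCGTG, 1 TATAAA and 2 CCAAT matches, searched on both strands. The short core GCGTG was found in 36.5% of 35116 RefSeq promoters of this length, TATAAA in 11.5% and CCAAT in 34.6%, so the matches describe the window and mark no binding.

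CYP1B1 and CYP1A2, the other members of the AHR-responsive CYP1 family, were low. CYP1B1 had 22 counts in MAEL WT and 13 in MAEL KO, and the interval of its log2 fold change of -0.52 ran from -1.66 to 0.50. CYP1A2, a main enzyme of caffeine clearance in liver, had 2 counts in each library.

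Among the other drug-metabolizing enzymes, CYP2S1, an extrahepatic enzyme, and CYP2C18, a CYP2C member with more transcript than protein in liver, were the next most abundant. CYP2S1 had 901 and 691 counts in MAEL WT and MAEL KO, a log2 fold change of -0.17 (95% limits -0.32 and -0.03). CYP2C18 had 382 and 226 counts, a log2 fold change of -0.55 (95% limits -0.79 and -0.31). Both were somewhat lower in MAEL KO, and their FPKM values of 14.3 and 12.7 for CYP2S1 and 7.22 and 4.93 for CYP2C18 place them far under CYP1A1 in MAEL WT.

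CYP3A5 and CYP2W1 also had intervals wholly below 0. CYP3A5, the CYP3A enzyme whose presence differs between people, had 108 counts in MAEL WT and 50 in MAEL KO, a log2 fold change of -0.89 (95% limits -1.41 and -0.40). CYP2W1, an enzyme found in fetal tissue and some tumours, had 67 and 25 counts, a log2 fold change of -1.18 (95% limits -1.94 and -0.53). Both were lower in MAEL KO by less than the threshold of 2.

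CYP2D6, CYP2E1 and CYP2B6 had intervals that included 0. CYP2D6, which metabolizes many psychoactive drugs and beta blockers, had 68 counts in each library, a log2 fold change of 0.21 (95% limits -0.30 and 0.72). CYP2E1, the ethanol-inducible enzyme, had 45 and 42 counts, a log2 fold change of 0.11 (95% limits -0.53 and 0.75). CYP2B6, a target of the receptor NR1I3, had 13 and 21 counts, a log2 fold change of 0.85 (95% limits -0.16 and 2.02). With total counts in place of TMM, the signs of CYP2D6 and CYP2E1 turned to negative.

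The main drug enzymes of adult liver were at or near 0 in both libraries. CYP3A4, CYP3A7, CYP2C8, CYP2C19, CYP2A6 and CYP2F1 had between 0 and 9 counts, and CYP2A7, CYP2A13, CYP3A43 and the readthrough gene CYP3A7-CYP3A51P had none. Over the 10 tested drug and xenobiotic genes, 3 were above 0 and 7 below, and their median was -0.53, against -0.04 for all tested genes. The interval of their median from the ranks, -1.18 to 0.21, includes the median of all tested genes. With total counts the medians were -0.80 and -0.31.

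**Figure D2:**
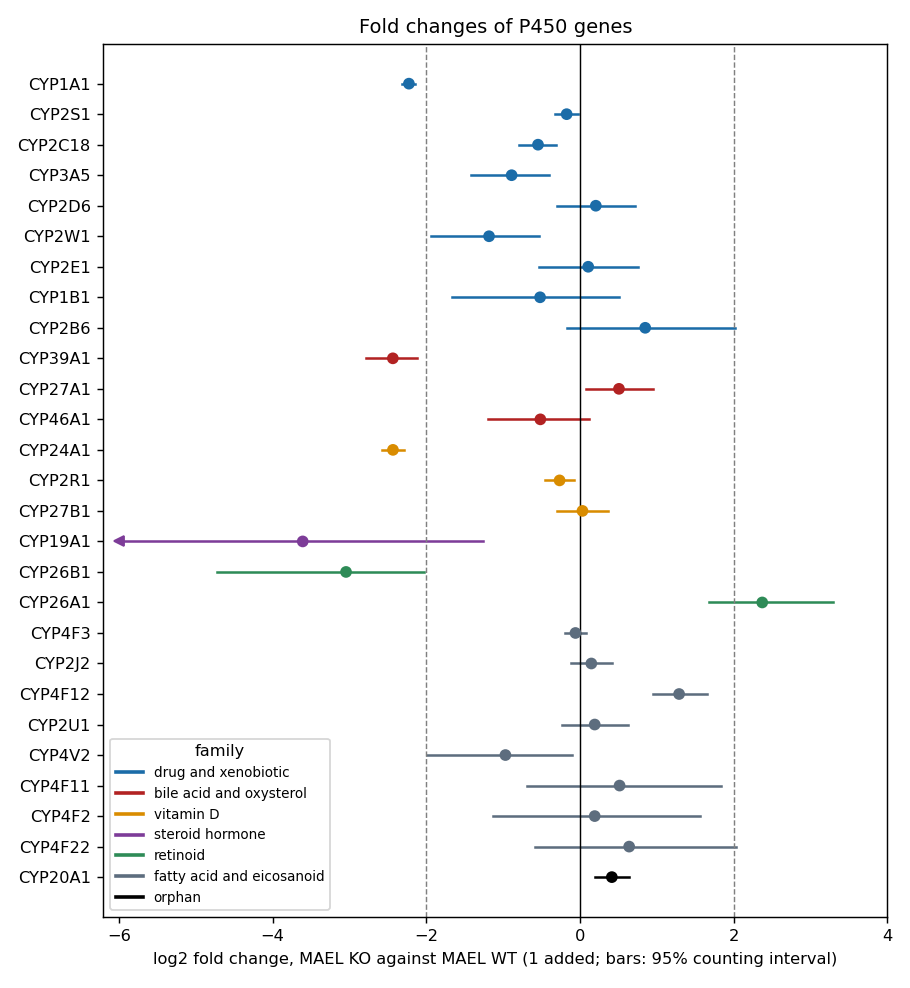
Log2 fold changes, MAEL KO over MAEL WT, with 1 added (points) and their 95% counting intervals (bars) for tested P450 genes, coloured by substrate family, with dashed lines at -2 and 2. The intervals of CYP1A1, CYP24A1, CYP39A1 and CYP26B1 lie wholly below -2, that of CYP19A1 has no lower end because MAEL KO had 0 counts, and that of CYP26A1 runs from 1.68 to 3.29.

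In the bile acid and oxysterol family, CYP39A1 was lower in MAEL KO while CYP27A1 was slightly higher with TMM. CYP39A1, a liver enzyme that hydroxylates an oxysterol on a side route to bile acids (ENSG00000146233; chromosome 6, 46549580 to 46652830, minus strand), had 555 counts in MAEL WT and 88 in MAEL KO. The level was 5.45-fold lower, a log2 fold change of -2.43 (95% limits -2.79 and -2.12), and its FPKM went from 8.16 to 1.49. CYP27A1, the mitochondrial enzyme that starts the alternative route of bile acid synthesis, had 81 and 100 counts, a log2 fold change of 0.51 (95% limits 0.08 and 0.96). With total counts it was 0.24, and no interval of the family lay wholly above 0. CYP46A1, the enzyme that removes cholesterol from the brain, had 55 and 33 counts, a log2 fold change of -0.51 (95% limits -1.20 and 0.12).

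The other genes of the family had at most 4 counts in a library. CYP7A1, the rate-limiting enzyme of the classical route, had 0 counts in both libraries. CYP8B1, which sets the amount of cholic acid, had 4 and 2 counts, and CYP7B1, which acts after CYP27A1, had 0 and 3. The 3 tested genes of the family had a median of -0.51.

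Among the vitamin D enzymes, the inactivating enzyme CYP24A1 was lower in MAEL KO, and the activating enzymes CYP2R1 and CYP27B1 differed little. CYP24A1, a mitochondrial enzyme and a classical target of VDR (ENSG00000019186; chromosome 20, 54153449 to 54173973, minus strand), had 2997 counts in MAEL WT and 479 in MAEL KO. The level was 5.41-fold lower, a log2 fold change of -2.43 (95% limits -2.58 and -2.30), and its FPKM went from 34.5 to 6.36. CYP2R1, which makes the circulating form of vitamin D in liver, had 588 and 423 counts, a log2 fold change of -0.26 (95% limits -0.45 and -0.08). CYP27B1, which makes the active hormone and acts mainly in kidney, had 165 and 146 counts, a log2 fold change of 0.03 (95% limits -0.30 and 0.36) that turned negative with total counts. The family median was -0.26 over its 3 genes.

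The steroid hormone family was almost silent. CYP19A1, the aromatase that makes estrogens from androgens (ENSG00000137869; chromosome 15, 51208057 to 51338610, minus strand), had 12 counts in MAEL WT and 0 in MAEL KO. Computed against the floor of 3 counts its level was at least 3.46-fold lower, a log2 value of -1.79, and the end of its counting interval nearest to 0 was -1.26. The fitted value of -3.61 rests on the added count and is no bound, so this gene lies past -2 only on that scale. CYP17A1, CYP11A1 and CYP21A2, which act in the adrenal gland and gonads, had between 0 and 3 counts, and CYP11B1 and CYP11B2 had 0 in both libraries. Summed over the 6 genes, the counts were 17 in MAEL WT and 0 in MAEL KO.

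The retinoid family held the clearest opposition between members. CYP26A1 and CYP26B1 both inactivate retinoic acid, and CYP26A1 is known to be induced by it. CYP26A1 (ENSG00000095596; chromosome 10, 93073475 to 93077890, plus strand) had 17 counts in MAEL WT and 80 in MAEL KO. The level was 5.44-fold higher, a log2 fold change of 2.37 (95% limits 1.68 and 3.29). CYP26B1 (ENSG00000003137; chromosome 2, 72129238 to 72148038, minus strand) had 65 counts in MAEL WT and 6 in MAEL KO. The level was 9.36-fold lower, a log2 fold change of -3.04 (95% limits -4.73 and -2.03).

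The split of reads between both genes within a library needs no scaling between libraries. CYP26A1 took 17 of 82 CYP26A1 and CYP26B1 counts in MAEL WT, or 20.7% (exact Clopper-Pearson interval 12.6% to 31.1%). In MAEL KO it took 80 of 86, or 93.0% (85.4% to 97.4%). In FPKM, CYP26A1 went from 0.262 to 1.42 and CYP26B1 from 0.593 to 0.0631, so the gene with the higher level was CYP26B1 in MAEL WT and CYP26A1 in MAEL KO. The family sum barely moved, from 85 to 88 counts, with CYP26C1 and CYP27C1 at 1 or 2 counts each. All of these levels were low, and CYP26A1 in MAEL KO lay above 35.2% of tested genes.

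The promoters of both genes are shown because the genes act on the same substrate and were the only pair of 1 family past the threshold of 2 in opposite directions. They were taken from RefSeq on GRCh38.p14 over the same length as for CYP1A1, at chr10:93073643-93073942, plus strand, for CYP26A1 and chr2:72147813-72148112, minus strand, for CYP26B1. Capitals mark the letters TATAAA and CCAAT wherever they fall, and a direct repeat of AGTTCA with 5 bases between the copies. This repeat, a retinoic acid response element, appears here on the reverse strand, as TGAACT followed by 5 bases and TGAACT again. In the CYP26B1 window TATAAA lies at the end farthest from the start, and CCAAT lies after the start. TATAAA was found in 11.5% of 35116 promoters and CCAAT in 34.6%.
CYP26A1: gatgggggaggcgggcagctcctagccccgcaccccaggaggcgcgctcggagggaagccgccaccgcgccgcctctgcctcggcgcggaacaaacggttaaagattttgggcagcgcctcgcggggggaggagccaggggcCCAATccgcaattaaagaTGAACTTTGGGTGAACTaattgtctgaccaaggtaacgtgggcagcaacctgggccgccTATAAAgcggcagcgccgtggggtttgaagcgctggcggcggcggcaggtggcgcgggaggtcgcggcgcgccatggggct
CYP26B1: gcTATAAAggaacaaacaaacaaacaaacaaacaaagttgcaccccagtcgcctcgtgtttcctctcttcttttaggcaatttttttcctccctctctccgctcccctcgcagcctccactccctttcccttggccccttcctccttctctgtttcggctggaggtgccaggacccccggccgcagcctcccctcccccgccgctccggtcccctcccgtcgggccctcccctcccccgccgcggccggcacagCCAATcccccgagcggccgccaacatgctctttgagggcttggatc
The direct repeat, searched on both strands, began at position -90 from the RefSeq start of CYP26A1 and had no match in the CYP26B1 window. It occurred in 4 of 35116 promoters (0.0114%). Among the 52 P450 promoters searched, CYP26A1 was the only gene with a match. The promoters searched did not cover all 55 P450 genes. Only these exact letters were searched, and any other spelling of the element would have been missed. The share therefore describes this spelling alone, and the lack of a match elsewhere does not show that the element is absent there. RefSeq lists 2 starts for CYP26A1, and this window was chosen because it holds the match, since the other had none of the motifs searched. The other window, 93073225 to 93073524, spans the annotated gene start at 93073475, whereas the window shown lies inside the annotated gene. A match describes letters only, and binding was not measured.

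The fatty acid and eicosanoid family was the least altered, apart from CYP4F12. CYP4F12, an enzyme that hydroxylates arachidonic acid and some antihistamines, had 101 counts in MAEL WT and 215 in MAEL KO. The level was 2.46-fold higher, a log2 fold change of 1.29 (95% limits 0.95 and 1.66). CYP4F3, which inactivates leukotriene B4, was the most abundant of the family with 1050 and 872 counts and FPKM values of 8.70 and 8.34. Its log2 fold change of -0.06 had an interval of -0.19 to 0.07.

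CYP2J2 and CYP2U1, which make epoxides or hydroxylated products of arachidonic acid, were close between libraries. CYP2J2 had 243 and 233 counts, a log2 fold change of 0.15 (95% limits -0.12 and 0.41). CYP2U1 had 94 and 93 counts, a log2 fold change of 0.19 (95% limits -0.23 and 0.62). Both signs turned to negative with total counts.

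CYP4V2, a fatty acid hydroxylase of the retina and liver, had 35 counts in MAEL WT and 15 in MAEL KO, a log2 fold change of -0.97 (95% limits -1.99 and -0.10). CYP4F2, CYP4F11 and CYP4F22, which hydroxylate long fatty acids or vitamins, had between 10 and 14 counts in each library, and their log2 fold changes of 0.19, 0.52 and 0.64 had intervals that included 0. CYP4A22 and CYP4X1 had between 0 and 5 counts, and CYP4A11, CYP4B1, CYP4F8 and CYP4Z1 had 0 in both libraries. Of the 8 tested genes 6 lay above 0, and their median was 0.19 with TMM but -0.07 with total counts. CYP20A1, the orphan, had 318 and 367 counts, a log2 fold change of 0.42 (95% limits 0.20 and 0.64), with FPKM values of 4.72 and 6.29. With total counts its log2 fold change was 0.14.

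**Figure D3:**
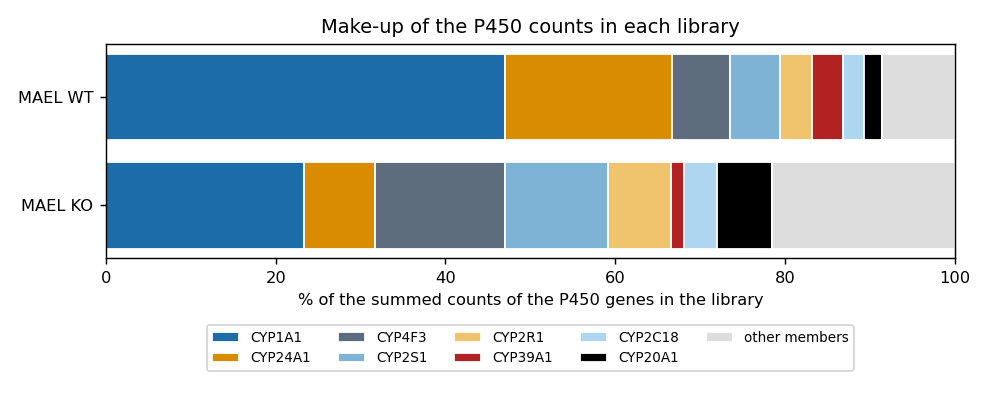
Make-up of the summed counts of the 55 P450 genes in each library (1 bar per library, percent of P450 counts). CYP1A1 and CYP24A1 fill 66.6% of the MAEL WT bar and 31.7% of the MAEL KO bar, and CYP4F3, CYP2S1, CYP2R1 and CYP20A1 take larger segments in MAEL KO.

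The make-up of the P450 reads, which needs no scaling between libraries, differed accordingly. The 55 genes took 0.0769% of all counts in MAEL WT and 0.0274% in MAEL KO, a comparison that, unlike the make-up, scales by total counts. CYP1A1 supplied 47.1% of the P450 counts in MAEL WT (Clopper-Pearson interval 46.3% to 47.9%) and 23.3% in MAEL KO (22.2% to 24.5%). CYP24A1 supplied 19.6% (18.9% to 20.2%) and 8.39% (7.68% to 9.14%). Both genes thus held a smaller part of the P450 reads in MAEL KO, and genes with small fold changes held a larger part.

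CYP4F3 went from 6.86% to 15.3% of the P450 counts, CYP2S1 from 5.88% to 12.1%, CYP2R1 from 3.84% to 7.41% and CYP20A1 from 2.08% to 6.43%. CYP39A1 went from 3.62% to 1.54%. By family, drug and xenobiotic genes went from 58.0% to 44.0%, fatty acid and eicosanoid genes went from 10.2% to 25.7%, vitamin D genes from 24.5% to 18.4%, and bile acid and oxysterol genes from 4.54% to 3.96%. Retinoid genes took 0.555% and 1.54%. Levels per length put CYP1A1, CYP24A1 and CYP2S1 at the 3 highest FPKM values in MAEL WT, and CYP1A1, CYP2S1 and CYP4F3 in MAEL KO.

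**Figure D4:**
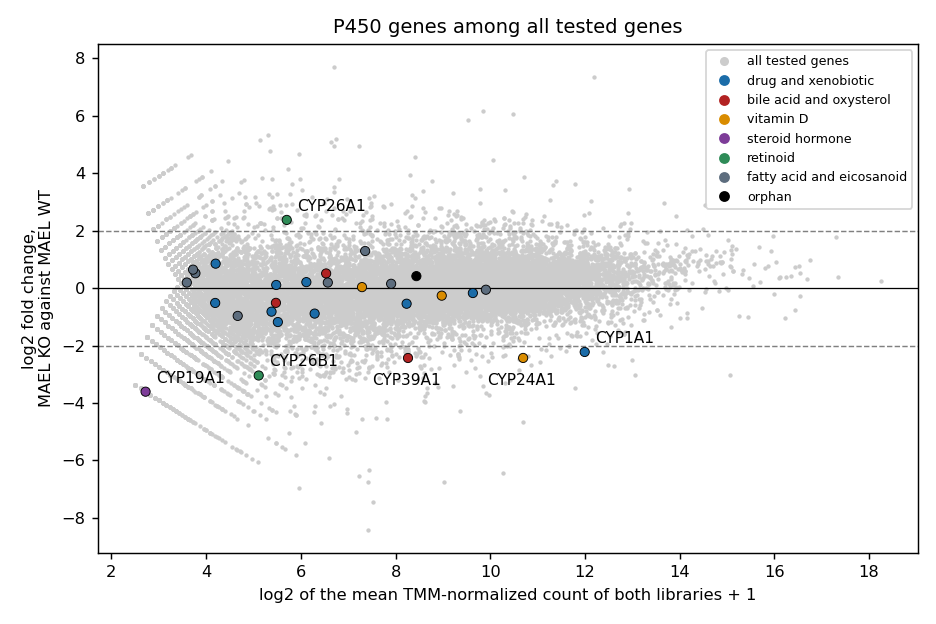
Log2 fold change, MAEL KO over MAEL WT, with 1 added, plotted against the log2 mean normalized count for all 17887 tested genes (grey) and the 28 tested P450 genes (coloured by family), with dashed lines at -2 and 2. CYP1A1, CYP24A1 and CYP39A1 lie below -2 at high or middling levels, CYP19A1 lies at the left edge among genes with few counts, and the other P450 genes sit within the grey cloud.

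P450 enzymes depend on electron donors, and with TMM the donors had no member past 2 in either direction, while with total counts CYB5R2, a cytochrome b5 reductase, lay below -2. POR, the reductase of microsomal P450 enzymes, had 4085 counts in MAEL WT and 3933 in MAEL KO, a log2 fold change of 0.16. FDX1, the mitochondrial ferredoxin that serves CYP24A1 and CYP27A1, had 1148 and 1207 counts (0.28 on the log2 scale), and its reductase FDXR had 577 and 409 (-0.29). CYB5A, the cytochrome b5 that aids many microsomal P450 enzymes, had 732 and 1459 counts (1.20). The small differences of POR and FDX1 were positive with TMM, and the list median was 0.23 with TMM and -0.05 with total counts.

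Over the 11 tested donors, 7 lay above 0. At the upper end beside CYB5A were the reductase CYB5R4 with a log2 fold change of 0.98 and the mitochondrial cytochrome CYB5B with 0.93. At the lower end were CYB5R2, with 11 and 2 counts and a log2 fold change of -1.83 (95% limits -5.46 and -0.05), and CYB5R1, with -0.92. CYB5R2 had reached 10 counts in MAEL WT only, and so could enter only as lower in MAEL KO. Heme synthesis and breakdown had no tested member of its 12 past 2, and a median of 0.25 with TMM and -0.03 with total counts. CPOX and UROS of heme synthesis and BLVRA of bile pigment formation were at its upper end with 0.84, 0.58 and 0.79, and BLVRB, another biliverdin reductase, UROD and PPOX were at its lower end with -0.71, -0.24 and -0.20.

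Among 26 tested regulators of P450 transcription, NR1H4 lay above 2 (3.85%, against 2.16% of all tested genes) and CEBPB and ARNT2 lay below -2 (7.69%, against 5.64%), shares near those of all tested genes. NR1H4, the bile acid receptor FXR, had 9 counts in MAEL WT and 270 in MAEL KO, a log2 fold change of 4.96 (95% limits 4.17 and 6.26). Its target NR0B2, which represses CYP7A1, had 28 and 30 counts (0.30 on the log2 scale). CEBPB, a factor of acute phase and liver genes, had 9375 and 1723 counts, a log2 fold change of -2.23 (95% limits -2.31 and -2.16). ARNT2, a partner protein of bHLH-PAS factors such as AHR, had 24 and 2 counts, a log2 fold change of -2.89 (95% limits -6.50 and -1.36).

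AHR itself had 2448 and 1611 counts, a log2 fold change of -0.39 (95% limits -0.48 and -0.30). VDR, the receptor that induces CYP24A1, had 30 and 10 counts, a log2 fold change of -1.30 (95% limits -2.57 and -0.30). RARB, a retinoic acid receptor whose gene responds to its own ligand, had 160 and 165 counts, a log2 fold change of 0.25 (95% limits -0.07 and 0.58). The other retinoic acid receptors, added after their values were seen, were lower in MAEL KO, with a log2 fold change of -1.06 for RARG (95% limits -1.30 and -0.83) and of -0.31 for RARA (95% limits -0.50 and -0.13).

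NR1I2, the drug receptor PXR, had 2 and 3 counts, and NR1I3, the related receptor CAR, had 84 and 88 (0.27 on the log2 scale). HNF4A, a factor of hepatocyte identity, was higher in MAEL KO with a log2 fold change of 1.15. The median of the regulators was 0.04 with TMM and -0.24 with total counts, and 15 of the 26 lay above 0 with TMM.

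AHR target genes other than P450 gave a mixed picture. Of 8 listed, 7 were tested, 2 lay above 0 and 5 below, and the median was -0.37. LRAT, which stores retinol as esters and is also on the retinoid list, had 33 and 6 counts, a log2 fold change of -2.09 (95% limits -3.79 and -0.98). SLC7A5, an amino acid carrier, AHRR, the repressor of AHR, TIPARP and NQO1 had log2 fold changes of -0.93, -0.85, -0.37 and -0.23. NFE2L2, a factor of the oxidant response, and ALDH3A1, an aldehyde dehydrogenase with 7 and 12 counts, both had 0.89. AHRR is also on the list of regulators.

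The other bile acid genes, unlike CYP39A1, had mostly higher values in MAEL KO. Of 10 tested, 7 lay above 0 with TMM and with total counts, 1 was above 2 (10%, against 2.16% of all tested genes) and none below -2, and the median was 1.01 against -0.04 for all tested genes. The interval of the list median from the ranks, -0.04 to 1.78, just includes that of all tested genes. BAAT, which joins bile acids to taurine or glycine, had 5 and 92 counts, a log2 fold change of 4.15 (95% limits 3.14 and 6.07). This gene, the only one of the list above 2, had reached 10 counts in MAEL KO only and could enter only as higher there. AMACR, a peroxisomal racemase of side-chain shortening, had 1.78, and AKR1D1, which reduces the steroid ring, had 1.32. ACOT8, SLC27A5 and HSD3B7 were at the lower end with -0.78, -0.04 and -0.02.

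**Figure D5:**
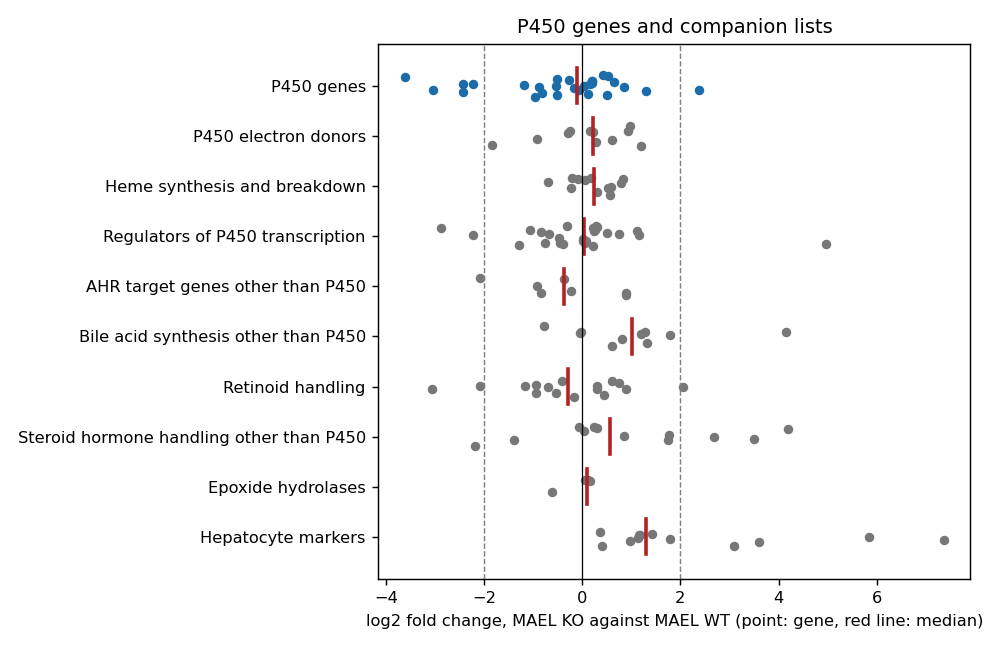
Log2 fold change, MAEL KO over MAEL WT, with 1 added, for each tested gene (points) of the P450 genes (blue) and of the companion lists (grey), with the median of each list as a red line and dashed lines at -2 and 2; the points are spread vertically at random. The P450 median lies at -0.11, that of the other bile acid genes at 1.01 and that of the hepatocyte markers at 1.29, and the medians of electron donors, heme genes, regulators and epoxide hydrolases turn from positive to negative with total counts.

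Retinoid handling genes lay on both sides of 0. Of 16 tested, FABP5, a fatty acid carrier that also binds retinoic acid, lay above 2 (6.25% of the list, against 2.16%) with 1681 and 6032 counts, a log2 fold change of 2.05 that was under the threshold with total counts. STRA6, the cell surface receptor for retinol carried by RBP4, had 37 and 3 counts, a log2 fold change of -3.07 (95% limits -5.76 and -1.76), and LRAT was the other gene below -2 (12.5% of the list, against 5.64% of all tested genes). Of the enzymes that make retinoic acid, ALDH1A2 had 168 and 64 counts, a log2 fold change of -1.17, and ALDH1A1 had 20246 and 29516, a log2 fold change of 0.75. RBP4 had 0.89, and the median of the list was -0.29 with TMM and -0.56 with total counts.

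Genes of steroid hormone handling other than P450 had a median of 0.57 over 12 tested genes, with 3 above 2 (25.0%, against 2.16% of all tested genes) and 1 below -2 (8.33%, against 5.64%). SULT2A1, the liver sulfotransferase of DHEA and bile acids, had 0 counts in MAEL WT and 16 in MAEL KO and was at least 6.17-fold higher against the floor of 3 counts. GC, the plasma carrier of vitamin D, had 17 and 176 counts, a log2 fold change of 3.50 (95% limits 2.86 and 4.39), and HSD17B2, which inactivates estradiol, had 5 and 33, a log2 fold change of 2.69 (95% limits 1.57 and 4.65). HSD17B6 had 88 and 16 counts, a log2 fold change of -2.19 (95% limits -3.12 and -1.47), HSD17B1, which activates estrogen, had -1.39 and the sulfatase STS -0.08. The epoxide hydrolases EPHX1, EPHX2, EPHX3 and EPHX4, which open epoxides that P450 enzymes form, had log2 fold changes of 0.16, 0.06, 0.13 and -0.62.

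Liver markers also differed between the libraries. All 12 hepatocyte markers were tested and all 12 lay above 0 under TMM and under total counts, with a median of 1.29 and a summed level of 14388 CPM in MAEL WT and 27843 CPM in MAEL KO. ALB (albumin) had 59 and 8550 counts, AFP (alpha-fetoprotein) 26 and 1351, and APOA1 (an HDL protein) 419 and 4400. With TTR, named for this count after its value was seen, these were the 4 above 2 (33.3%, against 2.16% of all tested genes). APOB, KRT18 and TF were at the lower end with log2 fold changes of 0.97, 0.41 and 0.36. The part of this marker difference in the P450 values was not tested.

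Markers of other cell types were sparse. The 8 leukocyte markers summed to 1299 and 750 counts, of which LYZ gave 1251 and 737, and CD3E, CD3D and MS4A1 were at 0 in both libraries. The 8 fibroblast and stellate markers summed to 280 and 177 counts with ACTA2 at 0 in both, and the 6 endothelial markers to 358 and 408, of which PECAM1 gave 348 and 392. Both libraries came from cultured PLC8024 cells and not from a mixed tissue. Fewer cells that express a gene and less of its RNA per cell cannot be told apart in these bulk libraries. CYP51A1, left out by the rule, had 910 and 717 counts, a log2 fold change of -0.13 (95% limits -0.28 and 0.01), and the P450-fold enzymes TBXAS1 and PTGIS, which make thromboxane and prostacyclin, had between 0 and 3 counts.

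Some of these counts may hold reads of other genes. Of all 50-base stretches of a gene's annotated transcripts, 36.6% for CYP2C18, 34.4% for CYP2D6, 23.3% for CYP26A1 and 17.7% for CYP2E1 also occur in another gene, and 0% for CYP1A1, CYP24A1, CYP39A1, CYP26B1 and CYP19A1. CYP27B1 overlaps METTL1 on the same strand, with 304 and 484 counts, and CYP2E1 overlaps SCART1 on the same strand, with 247 and 114. CYP1B1, CYP2D6 and CYP19A1 overlap genes on the opposite strand, the most abundant of which had at most 38, 68 and 10 counts in a library, and whether strand was used in counting is not given in the sources used here. The small values of these genes are uncertain to that extent, and CYP26A1 overlaps a same-strand transcript with 0 counts in both libraries.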

How the data were processed

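RNA of 2 samples, MAEL WT and MAEL KO cells, was sequenced. The authors deposited whole-number read counts per gene without normalization and FPKM values, and all 4 columns of sample values were used. The submitters' processing notes name HISAT2 2.0.5, featureCounts 1.5.0-p3 and hg19, yet all 58735 gene coordinates equal those of GENCODE 29 on GRCh38, the build given here. Read length and strandedness are not given in the sources used here. The FPKM values deposited by the authors equal counts per gene length over library sizes of 1.10 and 0.91 times the total counts, so they already include a scaling close to the TMM factors of 1.10 and 0.909.

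TMM factors came from edgeR 4.0.16 and size factors from DESeq2 1.42.0 in R 4.3.3. Later steps used pandas 2.3.3, SciPy 1.17.1 and NumPy 2.4.6 under Python 3.11.15, and plots used matplotlib 3.10.9. Of the protein-coding rule, CYP2D7 is annotated otherwise and was left out, and FDX1L was not matched by symbol. With 1 library per genotype no test and no replicate error exist, and, as no molecular identifiers are named, intervals and floors treat PCR copies as separate molecules. The fold threshold of 2 on the log2 scale follows the study. The alternatives were DESeq2 size factors, total counts, FPKM ratios with 0.01 added, 0.1 or 5 added counts, no filter, a filter of 100 counts, a log2 threshold of 1, and the exact test of edgeR at an adjusted p of 0.01, given a coefficient of variation of 0.4. Members and lists were chosen with earlier results of these data known. Named were all P450 genes with 10 or more counts in either library, the others by their counts, up to 3 genes at each end of each companion list, and POR, FDX1, FDXR, AHR, NR1I2, NR1I3, NR1H4, NR0B2, HNF4A, RARB, CYP51A1, TBXAS1, PTGIS and MAEL. Some genes that this rule covers were left out of the text. The steps were tested on simulated counts.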

Additional observations from a re-analysis of the deposited data

Results flagged for a closer look

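Besides the protein-coding genes, 52 P450-named genes of other annotation classes were listed, 11 of them with 10 or more counts in either library. CYP4F10P, an unprocessed pseudogene on chromosome 19 next to CYP4F12, had 12 counts in MAEL KO and 0 in MAEL WT. This is at least 4.63-fold higher against the floor of 3 counts. It was flagged as a signal outside the genes compared that exceeded the MAEL WT library. It was the 1 gene above 2, where 2.16% of all tested genes lay, and it had reached 10 counts in MAEL KO only. Among the same 11 genes, CYP2AB1P had 65 counts in MAEL WT and 0 in MAEL KO, at least 18.7-fold lower. It was the 1 gene below -2, where 5.64% of all tested genes lay, and it had reached 10 counts in MAEL WT only.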

How the results depend on the processing

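The count of P450 genes above 2 was 1 and went to 3 without a count filter, to 2 with a log2 threshold of 1, and to 0 with at least 100 counts required and in the exact test of edgeR with a variation of 0.4 assumed between replicates. The count below -2 was 5 and went to 6 without a count filter and at a log2 threshold of 1, to 3 with at least 100 counts required and to 0 in that exact test. It was 4 with 5 added counts and also, chosen after seeing the data, with CYP19A1 at its bound. Under the other scalings, FPKM included, both counts stayed at 1 and 5. The P450 median ranged from -0.39 with total counts to -0.11, and the fatty acid median was -0.07 with total counts against 0.19. Of 140 values of single genes under 5 alternatives, 8 moved beyond their counting interval, all with total counts. CYP27B1, CYP2D6, CYP2E1, CYP2J2, CYP2U1 and CYP4F2 changed sign with total counts, and their log2 fold changes with TMM were at most 0.21. No replicate could be left out, because each genotype has 1 library. No paired analysis was possible because the samples carry no replicate numbers.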
